A study of Mus musculus with 18 samples.

Results

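The response of MK5-depleted mouse myoblasts to differentiation medium was set against that of control myoblasts, as the interaction of line and medium. It is the DM2 minus GM change in the MK5-depleted line less the same change in the control line, on the log2 scale. A negative value means a smaller rise, a larger fall or a fall in place of a rise in the MK5-depleted line. GM is growth medium, in which C2C12 myoblasts divide, and DM2 is 2 days in differentiation medium, after which they turn on muscle genes and fuse. The members are the 12 libraries of these 4 groups out of 18 in the series, and 13939 genes could be tested. Both lines are stable C2C12 lines, and by the labels the control received a control plasmid and the MK5-depleted line px459-Mk5sg. px459 carries Cas9 with a guide RNA and puromycin resistance. Each group holds 3 libraries, numbered in the titles. Whether a line is a clone or a pool, and whether the numbers are separate cultures, is not given in the sources used here, so p-values measure the spread between these samples, which may be technical. Another line, depleted of ERK3 with px459-Mapk6sg, adds to the estimate of the spread and serves as the other depleted line for comparison.

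MK5, encoded by Mapkapk5, is a serine/threonine kinase that binds the atypical MAP kinase ERK3, encoded by Mapk6, and is activated in that complex. Myoblast differentiation is driven by the MyoD family together with MEF2 and TEAD factors, and is held back by Id proteins, which bind the E protein partners of MyoD. FoxO3 is a transcription factor of atrophy, metabolic and stress genes, and the title of the series places it downstream of ERK3 and MK5.

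The 12 libraries held 18.2 to 23.4 M reads counted in genes (M is 1e6 reads). Libraries 1 and 2 of MK5-depleted DM2 stood apart. Every fit below that leaves out a single library keeps at least 1 of them. Reads outside annotated genes made up 3.96, 4.11 and 2.84% of reads in MK5-depleted DM2 libraries 1, 2 and 3, against 2.4 to 3.22% in the 9 libraries of the other groups. The nuclear long noncoding RNA Malat1 stood at 2610, 2500 and 496 CPM (counts per 1e6 reads in genes, TMM-scaled) in the same 3 libraries and at 86.1 to 315 CPM in the others. With both of these libraries left out, 190 genes were called in place of the 2512 described below, from a fit in which the single MK5-depleted DM2 library is assumed to vary like the other groups. The sarcomere genes summed to 4170 to 4820 CPM in the GM libraries and 9480 to 12500 at DM2. Adgre1 and Tyrobp of macrophages, Emcn and Tie1 of endothelium and Cidec, Lep and Plin1 of fat cells had no count in any of the 18 libraries. The other members of these marker lists did have counts. The 10 fat cell markers summed to 35.1 to 70.3 CPM in the 12 libraries, and the 8 endothelial markers to 1.39 to 3.93. The 8 epithelial markers, none without a count, summed to 14.2 to 60.4 CPM. The 11 neuronal markers summed to 207 to 255 CPM in MK5-depleted DM2 and 59.8 to 116 in control DM2, against 262 to 295 and 202 to 254 in GM; the part of other cell types in the results was not tested.

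Mapkapk5 (chr5:121525038-121545905, GRCm38) had 11 to 32 reads per library in the gene count files, where it shares its strand and span with Adam1a and Gm42878. The deposited TPM, made from RSEM's estimates for overlapping transcripts, gave 52.8, 59.4 and 54.3 in control GM and 30.9, 33.4 and 35.6 in MK5-depleted GM. At DM2 they gave 70.3, 65.6 and 71.7 in control and 42, 47.3 and 58 in the MK5-depleted line. All MK5-depleted libraries were below all control libraries of the same medium. The interaction at Mapkapk5 was -0.13 ± 0.38 (log2 ± SE, adjusted p = 0.844) from gene counts and 0.59 (adjusted p = 0.00441) from RSEM expected counts, so its direction depends on the quantification. Foxo3 transcript stood at 62.9, 73.2 and 66.1 CPM in control GM libraries, 69.3, 72.4 and 66.8 in control DM2, 55.8, 53.7 and 53.6 in MK5-depleted GM and 47.3, 51.9 and 52.5 in MK5-depleted DM2. It was below control in both media, with no change on differentiation called in either line and an interaction of -0.15 ± 0.13 (adjusted p = 0.427). FoxO3 protein was not measured.

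Calls rest on edgeR's quasi-likelihood test, at an adjusted p (Benjamini-Hochberg) under 0.05. The interaction was called at 2512 genes, 18% of those tested, of which 1190 were higher (8.54%) and 1322 lower (9.48%). The median size over called genes was 0.64 on the log2 scale, and 454 passed 2-fold. The response itself was called at 6356 genes in control (45.6%) and 6876 in the MK5-depleted line (49.3%). On log2 TPM, where the median interaction of all genes lies at -0.277, 12.8% of 2998 calls were higher, against 47.4% here. Called genes were then sorted by the calls of the 2 responses, which share the libraries of the interaction, so the classes describe and do not test. Blunted genes (1090, 43.4% of called) responded in control and responded less in the MK5-depleted line: 883 of them had no called response there and 207 a reduced one. Newly responding genes (1022) had a called response in the MK5-depleted line but not in control. Reversed genes (202) changed in opposite directions, and exaggerated genes (128) changed further than in control. For 70 called genes neither response was called.

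**Figure D1:**
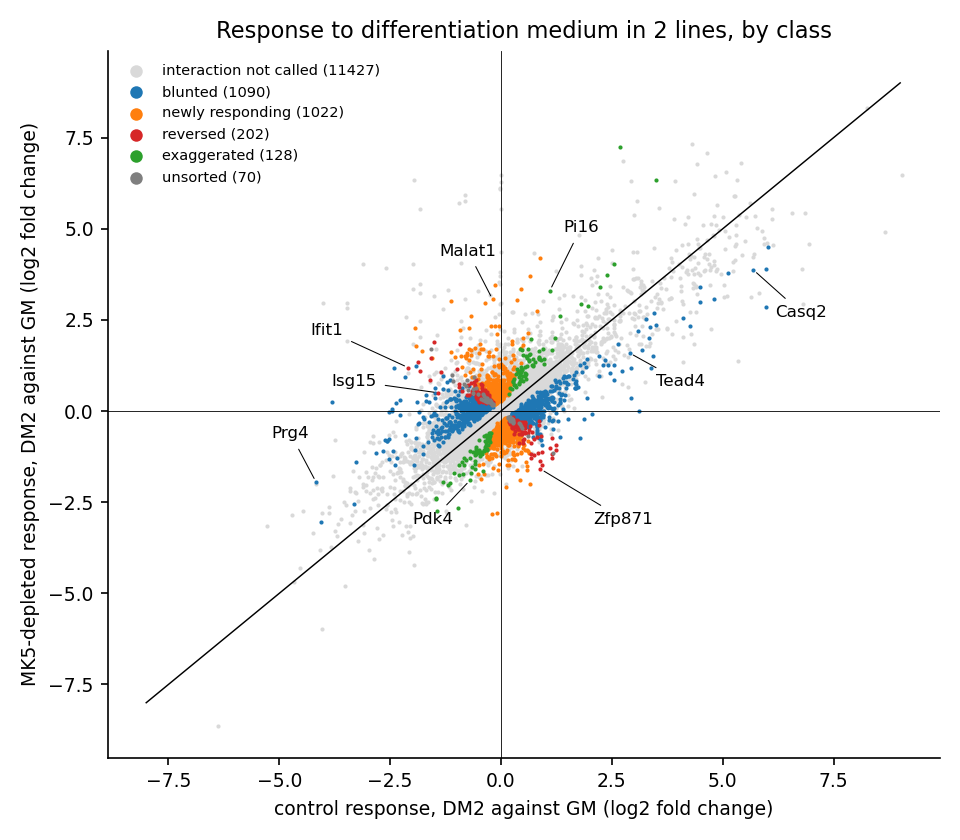
Log2 fold change from GM to DM2 in control (x axis) and in MK5-depleted cells (y axis), 1 point per tested gene, coloured by class with the number of genes, and equal responses on the diagonal. Blunted genes lie on the x axis side of the diagonal, some of them past that axis without a called response in the MK5-depleted line, and Ifit1 and Isg15 fall in control but rise in the MK5-depleted line.

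The lines differed mainly after differentiation. Of the 2512 called genes, 2211 (88%) were called between the lines at DM2 only, 113 in GM only, 55 in both media and 133 in neither. The difference between lines was larger at DM2 than in GM for 2279. Over all genes, 6288 differed between the lines at DM2 (45.1%) and 1178 in GM (8.45%).

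Muscle genes made up part of the blunted class. Casq2 encodes cardiac calsequestrin, a calcium-storing protein of the sarcoplasmic reticulum (chr3:102086415-102146514). In control it stood at 3.52, 2.42 and 3.1 CPM in GM and at 149, 151 and 166 after differentiation. In the MK5-depleted line it stood at 5.61, 1.41 and 3.37 CPM in GM and 44, 35.7 and 75.3 at DM2. The lines overlapped in GM and were apart at DM2, where all MK5-depleted libraries were lower. Its rise was 5.69 on the log2 scale in control and 3.87 in the MK5-depleted line, an interaction of -1.82 ± 0.58 (adjusted p = 0.0414). This call rests on the whole set of libraries: it was lost without any 1 of 10 of the 12 (all but MK5-depleted GM 2 and DM2 3), with values of adjusted p up to 0.18. In whole cultures, fewer differentiated cells and less RNA per cell cannot be told apart.

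The sarcomere list holds thick and thin filament, Z-disc and assembly genes. Of 49 tested members 6 had a lower interaction and 2 a higher one, with a median of -0.31 against 0.01 over all genes. The mean log2 CPM of the list was 2.12, 1.58 and 1.61 in control GM and 5.31, 5.24 and 5.32 in control DM2, against 2.28, 1.48 and 1.77 and 5.05, 4.72 and 5.34 in the MK5-depleted line. MK5-depleted DM2 library 3, the library with the lowest Malat1 of its group, was level with control and libraries 1 and 2 were below. Whether RNA quality has a part in this was not tested. The list's share of called genes, 16.3%, was below the 18% over all tested genes (8.54% higher, 9.48% lower). The lower count was 0 without MK5-depleted DM2 1, control GM 2 or control GM 3, 1 without MK5-depleted GM 1, MK5-depleted DM2 2, MK5-depleted GM 3, control DM2 2 or control DM2 3, and 3 without control DM2 1. The higher count was 0 or 1 without any library other than MK5-depleted DM2 2 or GM 2, and both counts were 0 without MK5-depleted DM2 1 and 2. Lmod2, which lengthens thin filaments, had 22.5, 24 and 25 CPM in control DM2 and 8.4, 5.68 and 12.6 in MK5-depleted DM2, with under 1 CPM in each GM library. All 3 MK5-depleted DM2 libraries were lower, and the interaction was -2.07 ± 0.61 (adjusted p = 0.0294), lost without any 1 of 6 libraries (MK5-depleted DM2 1 and GM 1, control DM2 2 and 3, control GM 2 and 3). Actc1, the actin of developing muscle, reached 457, 574 and 605 CPM in control DM2 and 328, 281 and 534 in MK5-depleted DM2, where the groups overlapped. Its GM levels were higher in the MK5-depleted line (21.7, 12.1 and 16.1 against 9.44, 8.04 and 7.71 CPM), and the interaction of -1.51 ± 0.44 (adjusted p = 0.0284) kept its call in 4 of 12 fits that leave out a library.

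Regulators of myogenesis were counted next. Of 22 tested, 7 had a lower interaction and none a higher one, against 9.48% lower and 8.54% higher over all tested genes. The median was -0.51, against 0.01 over all genes. The lower count was 5 to 8 with each library left out and 7 with offsets for gene length and GC content. It was 1 with MK5-depleted DM2 1 and 2 both left out and 14 on log2 TPM. In that unit the median of all genes lies at -0.277, and 12.8% of all calls were higher. Tead4, a TEAD factor that binds muscle gene promoters, stood in control at 7.09, 5.8 and 6.21 CPM in GM and at 41, 47.5 and 53.9 at DM2. In the MK5-depleted line it stood at 7.95, 8.06 and 9.39 CPM and at 23.9, 17.6 and 34.8. It started above control and ended below it in every library, and its interaction was -1.31 ± 0.27 (adjusted p = 0.00862), called in 12 of 12 fits with a library left out. The next 4 members were blunted and are named after their values were seen. They are the activators Myod1 (-0.67), Mef2a (-0.54) and Mef2d (-0.72) and the Kruppel-like factor Klf5 (-1.25). Myog, another member, was not called (-0.72, adjusted p = 0.296). Nor were the sarcomere genes Myh3 (-0.85, adjusted p = 0.295) and Des (0.31, adjusted p = 0.102). Mef2d and Klf5 kept their call in 12 of 12 such fits, Myod1 in 8 and Mef2a in 4, and the Mef2a call was lost with the length and GC offsets (-0.27). With MK5-depleted DM2 1 and 2 both left out, the interaction was smaller at Tead4 (-0.85), Klf5 (-1.02), Mef2d (-0.53) and Myod1 (-0.53). In that fit it was -0.6 at Mef2a. A single library then stands for MK5-depleted DM2, so only sizes are given here.

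The other 2 called members are inhibitors of differentiation, so the lower interaction did not fall on activators alone. Id2 stood at 42.5, 32.1 and 37.9 CPM in control GM libraries, 42.1, 44.8 and 45.6 in control DM2, 59.8, 51.5 and 72.9 in MK5-depleted GM and 22.4, 26.5 and 25.4 in MK5-depleted DM2. It was higher than control in every GM library and lower in every DM2 library of the MK5-depleted line. It fell by 1.31 on the log2 scale in the MK5-depleted line (adjusted p = 3.34e-06) and had no called change in control (0.24, adjusted p = 0.223), an interaction of -1.55 ± 0.22 (adjusted p = 0.00164). Id3, named after its values were seen, fell in both lines and further in the MK5-depleted line (-1.59 against -0.58, interaction -1.0, adjusted p = 0.0136).

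Single genes of the triad, the synapse and cell contact were also blunted. Jph1 encodes junctophilin, which ties the sarcoplasmic reticulum to the surface membrane. It rose from 21.3, 15.8 and 19.1 to 41.7, 36.5 and 41.4 CPM in control, and stood at 24.2, 19.6 and 22.1 in GM and 20.7, 16.5 and 22.1 at DM2 in the MK5-depleted line. The rise seen in control was absent from all 3 MK5-depleted libraries (interaction -1.25 ± 0.21, adjusted p = 0.00313). Musk, the receptor kinase that organises the neuromuscular synapse, rose from 16.9, 11.3 and 14.2 to 36.7, 42.4 and 40.3 CPM in control, against 20.5, 13 and 17 and then 11.3, 9.83 and 22.2 CPM in the MK5-depleted line. No MK5-depleted DM2 library reached the control DM2 range (interaction -1.72 ± 0.39, adjusted p = 0.0108). Cdh2, N-cadherin of myoblast contacts, rose from 114, 93.7 and 90.4 to 190, 176 and 153 CPM in control and stood at 119, 95.7 and 108 and then 95.7, 96.1 and 91.2 CPM in the MK5-depleted line (interaction -0.99 ± 0.15, adjusted p = 0.00233). These 3 genes kept their call in 12 of 12 fits with a library left out. Slc8a1, the sodium-calcium exchanger, did so too (interaction -2.04 ± 0.51, adjusted p = 0.0168), with 2.21, 4.26 and 8.05 CPM in MK5-depleted DM2 against 19, 21.6 and 23 in control DM2. The interaction was smaller at Musk (-1.09) and Slc8a1 (-1.3) with MK5-depleted DM2 1 and 2 both left out, a fit with a single MK5-depleted DM2 library.

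By list, 5 of 28 calcium handling genes were lower and none higher (median -0.46), 3 of 14 neuromuscular junction genes (median -0.63) and 3 of 25 fusion genes (median -0.22), against 9.48% lower over all tested genes; the fusion list, with 12% called, was near that share. The calcium count was 1 without MK5-depleted DM2 1, 2 without MK5-depleted GM 3 or control GM 2, 8 without MK5-depleted DM2 3 and 3 without MK5-depleted GM 1, MK5-depleted DM2 2, control DM2 1, 2 or 3 or control GM 3. The junction count was 7 without control GM 1, 6 without MK5-depleted GM 2, 5 without MK5-depleted DM2 3 and 1 without MK5-depleted DM2 1, any of MK5-depleted GM 1 and 3, control DM2 2 and 3 or control GM 2 and 3. The fusion count was 5 without MK5-depleted DM2 3. Chrna1, the alpha subunit of the muscle acetylcholine receptor, was called at the edge (-0.63 ± 0.21, adjusted p = 0.0496), and 9 of 12 fits with a library left out lost it. Sntb1, a syntrophin of the dystrophin complex, stood at 21.6, 27.3 and 22.9 CPM in control DM2 and 3.04, 3.28 and 8.84 in MK5-depleted DM2 (interaction -2.2 ± 0.59, adjusted p = 0.021). Its call was lost without MK5-depleted DM2 1, MK5-depleted GM 1 or control GM 2.

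**Figure D2:**
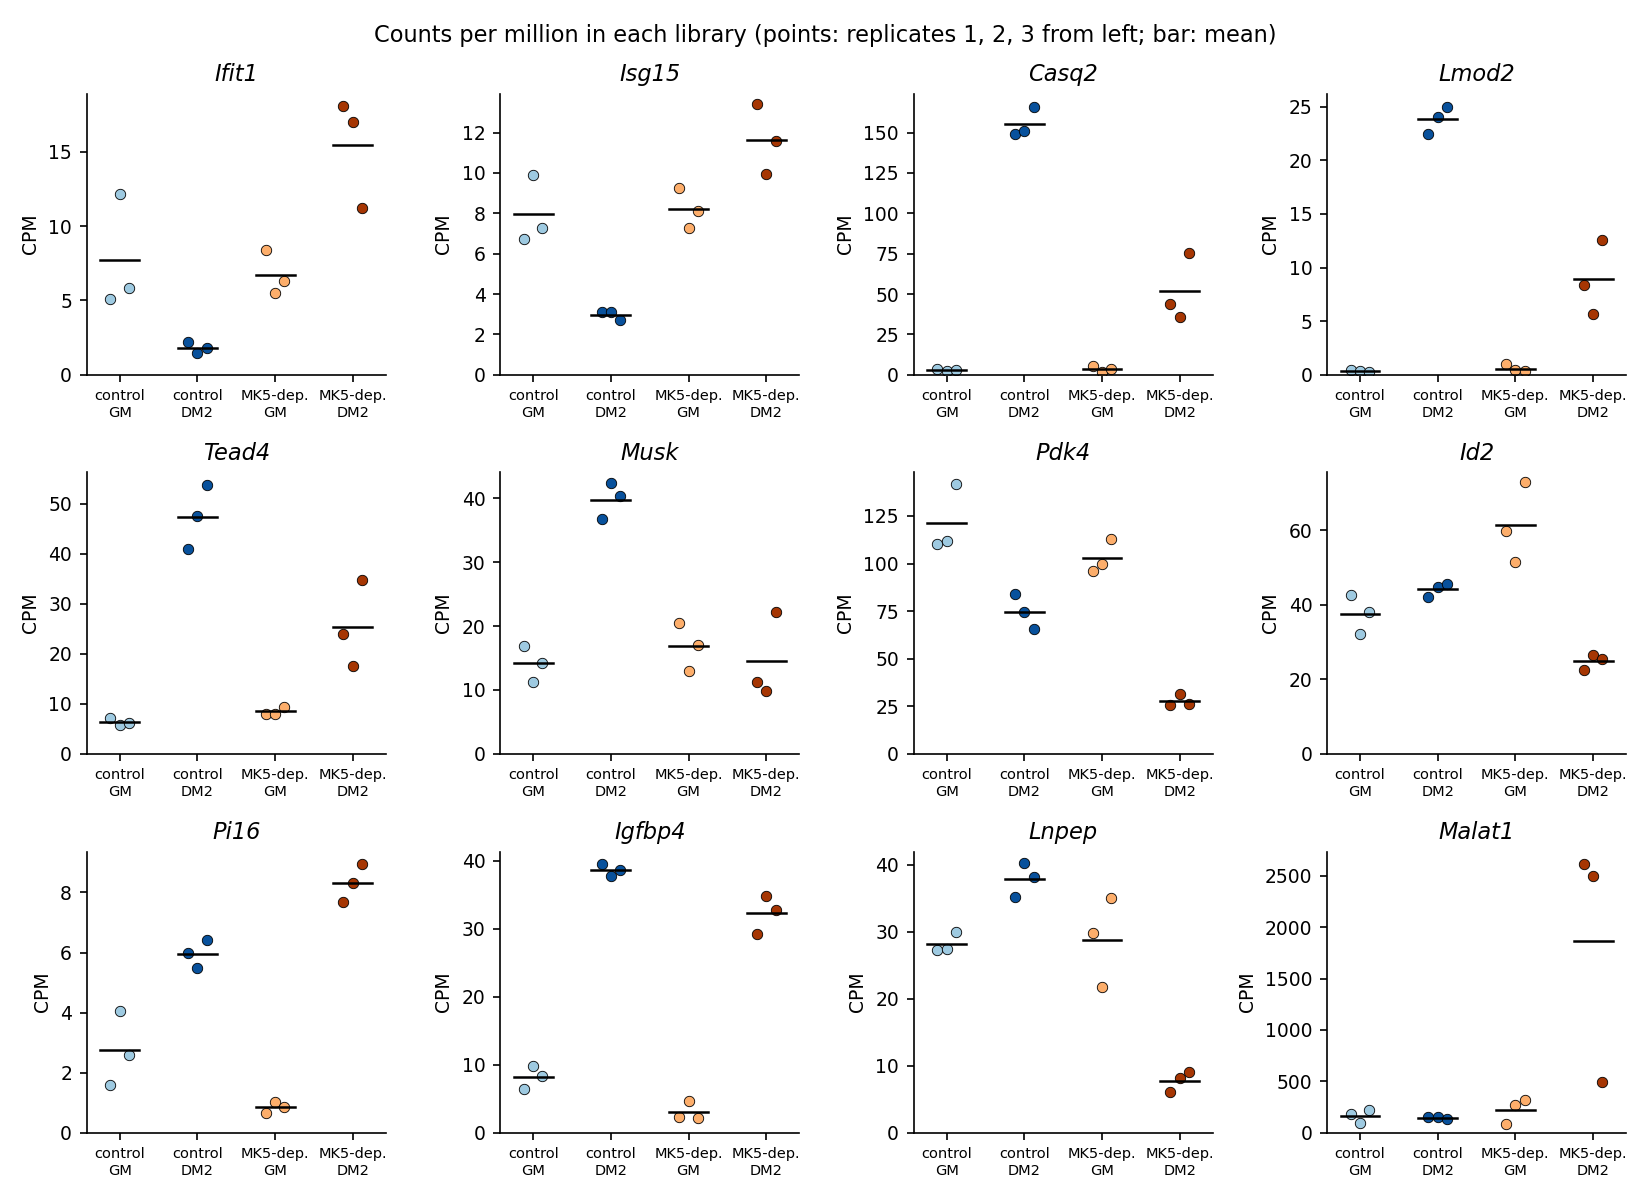
CPM of 12 genes in each of the 12 libraries, by group; points are replicates 1, 2 and 3 from left and bars are means, on linear axes that start at 0. By their means, Ifit1 and Isg15 are lowest in control DM2 and highest in MK5-depleted DM2. Casq2, Lmod2 and Tead4 rise less in the MK5-depleted line, and Musk has a called rise in control only. Malat1 is high in MK5-depleted DM2 libraries 1 and 2.

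The upstream bases of Musk are shown because promoters of muscle genes often carry E-boxes, the sites of MyoD. They are the 250 bases before the RefSeq start (GRCm38.p6, chr4:58285712-58285961, plus strand), with the 1 match to CAGCTG, a palindrome and so the same on either strand, in capitals at position -68 from the start.
Musk: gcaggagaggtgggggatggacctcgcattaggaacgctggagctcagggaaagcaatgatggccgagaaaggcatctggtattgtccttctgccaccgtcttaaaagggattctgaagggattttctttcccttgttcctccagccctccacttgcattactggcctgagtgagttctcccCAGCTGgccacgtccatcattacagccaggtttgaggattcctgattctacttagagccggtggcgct
CAGCTG was found in 13 of 39 sarcomere promoters, 7 of 18 of calcium handling and 4 of 9 of the neuromuscular junction, against 1230 of 10133 (12.1%) over all tested genes with a RefSeq promoter. By call, it was found in 1 of 5 promoters of sarcomere genes called lower and 11 of 32 of those not called, and it had no match in the 250 bases before Casq2. In the blunted class it was found in 10.7% of promoters of genes that lost and 19.2% of genes that reduced their response.

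Blunted genes with a higher interaction are those whose fall in control was smaller or absent in the MK5-depleted line. Calml4, a calmodulin-like protein, fell from 5.81, 12 and 8.66 to 3.48, 3.34 and 3.87 CPM in control. It stood at 2.93, 5.82 and 3.37 and then 5.08, 6.01 and 7.32 CPM in the MK5-depleted line, above control in every DM2 library (interaction 1.92 ± 0.42, adjusted p = 0.00953). Ly6a, or Sca-1, a surface marker of mesenchymal progenitors, fell from 267, 333 and 309 to 64.8, 57.9 and 51.7 CPM in control and from 217, 268 and 212 to 82.6, 94.1 and 74.6 in the MK5-depleted line. Its fall was smaller and all MK5-depleted DM2 libraries stayed above control (interaction 0.91 ± 0.17, adjusted p = 0.00562). Cnn1, a calponin of smooth muscle, fell in control from 40.5, 38.2 and 34.1 to 23.8, 10.9 and 14.2 CPM and stood at 61.7, 53 and 58.2 and then 86, 65.1 and 58.2 in the MK5-depleted line (interaction 1.48 ± 0.36, adjusted p = 0.0154). Angptl4, a secreted inhibitor of lipoprotein lipase, overlapped between the lines at DM2. Its control fall of 0.79 began from GM levels of 22.7, 35.9 and 29.5 CPM, above the 17.7, 14.3 and 14.8 of the MK5-depleted line (interaction 1.17 ± 0.23, adjusted p = 0.00725). Mki67, a marker of cycling cells, fell by 1.41 in control and by 0.54 in the MK5-depleted line (interaction 0.88 ± 0.22, adjusted p = 0.0161, lost without MK5-depleted DM2 1 at adjusted p = 0.0504). Of the 40 members of the cell cycle list, 2 were higher and 1 lower, and the higher count ran from 0 without MK5-depleted DM2 1 to 4 without control GM 2. The list's share of called genes, 7.5%, was below the 18% over all tested genes (8.54% higher, 9.48% lower), and its median was 0.07. For the pocket proteins of cell cycle exit, Rb1 rose by 1.18 in control and had no called rise in the MK5-depleted line (0.36, adjusted p = 0.0794, interaction -0.83, adjusted p = 0.0242), a call lost without MK5-depleted GM 3, control GM 2, control DM2 2 or control DM2 3.

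Interferon genes, of which more than the 8.54% of all tested genes were called higher, are described next. These genes are switched on by type I interferon and encode antiviral proteins. Of 60 listed genes 53 could be tested, and 29 had a higher interaction and none a lower one, with a median of 0.86. In control 35 fell and 1 rose on differentiation (23.1 and 22.5% of all tested genes did), while in the MK5-depleted line 6 fell and 13 rose (24.8 and 24.6%). The mean log2 CPM of the list was 2.6, 3.15 and 2.8 in control GM, 2.05, 2.07 and 1.97 in control DM2, 2.6, 2.59 and 2.5 in MK5-depleted GM and 2.78, 2.68 and 2.57 in MK5-depleted DM2. Every MK5-depleted DM2 library was above every control DM2 library. The called count was 24 with length and GC offsets and 6 with MK5-depleted DM2 libraries 1 and 2 both left out. It was 13 without control GM 2, 14 without MK5-depleted GM 3, 16 without MK5-depleted DM2 1 and 18 without MK5-depleted GM 1, and 9 (with 1 lower) on log2 TPM. The 8 macrophage markers summed to 8.51 to 10 CPM in control DM2 and 10.2 to 10.8 in MK5-depleted DM2, and to 15.3 to 21.2 and 11.7 to 16.9 in GM.

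Ifit1 (chr19:34640871-34650009), an interferon-induced RNA-binding antiviral protein, stood in control at 5.07, 12.2 and 5.86 CPM in GM and at 2.22, 1.44 and 1.82 at DM2. In the MK5-depleted line it stood at 8.37, 5.48 and 6.28 CPM in GM and 18.1, 17 and 11.2 at DM2. The lines overlapped in GM and were far apart at DM2. Ifit1 fell 4.26-fold in control and rose 2.28-fold in the MK5-depleted line, an interaction of 3.28 ± 0.49 (adjusted p = 0.00233). Isg15 (chr4:156199424-156200818), a ubiquitin-like modifier, stood at 6.72, 9.92 and 7.26 CPM in control GM libraries, 3.09, 3.11 and 2.73 in control DM2, 9.25, 7.28 and 8.12 in MK5-depleted GM and 13.4, 9.94 and 11.6 in MK5-depleted DM2. It was reversed in the same way (interaction 1.92 ± 0.24, adjusted p = 0.000815). Both genes kept their call in 12 of 12 fits with a library left out and in 17 of 17 other alternatives. Ccl5, a chemokine induced by interferon, did so as well and is named after its values were seen. It was at 0.29, 0.418 and 0.191 CPM in control DM2 against 3.65, 3.6 and 3 in MK5-depleted DM2, with GM levels of 2.24 to 6.32 in control and 2.85 to 2.89 in the MK5-depleted line (interaction 4.05 ± 0.49, adjusted p = 0.000815).

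The upstream bases of Ifit1 and Isg15 are shown because both genes are textbook targets of the interferon-stimulated response element. They are the 250 bases before the RefSeq start (GRCm38.p6), chr19:34640639-34640888 on the plus strand for Ifit1 and chr4:156200819-156201068 on the minus strand for Isg15. Capitals mark matches to GAAA, any 2 bases and GAAA, on either strand, at -104 and -85 in Ifit1 and, overlapping, at -78, -72 and -66 in Isg15.
Ifit1: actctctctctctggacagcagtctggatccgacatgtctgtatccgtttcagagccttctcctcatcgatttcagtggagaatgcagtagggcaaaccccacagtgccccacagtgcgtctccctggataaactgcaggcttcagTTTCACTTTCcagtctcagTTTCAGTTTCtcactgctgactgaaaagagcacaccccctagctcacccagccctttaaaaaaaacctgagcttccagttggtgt
Isg15: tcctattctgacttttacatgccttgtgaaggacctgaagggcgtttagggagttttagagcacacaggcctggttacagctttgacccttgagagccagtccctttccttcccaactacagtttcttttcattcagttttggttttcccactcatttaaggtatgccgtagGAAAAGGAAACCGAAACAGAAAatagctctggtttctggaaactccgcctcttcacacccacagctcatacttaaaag
The motif was found in 15 of 40 interferon promoters (37.5%) and in 257 of 10133 (2.54%) over all tested genes. Within the list it was found in 8 of 20 promoters of genes called higher and in 7 of 20 of genes not called. Among the classes, it was found in 9 of 160 promoters of reversed genes (5.62%), which hold 6 interferon genes.

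The other reversed genes with the largest interaction included Zfp871, Klhl11 and Atp7a, which rose in control and fell in the MK5-depleted line. Zfp871, a zinc finger gene, stood at 11.3, 11.4 and 10.5 CPM in control DM2 and 1.66, 1.64 and 3.95 in MK5-depleted DM2, with GM levels of 4.65 to 6.67 and 5.34 to 9.6 (interaction -2.48 ± 0.44, adjusted p = 0.00441). Klhl11, an adaptor of a ubiquitin ligase, stood at 10.9, 12.8 and 11 CPM in control DM2 and 1.44, 1.86 and 4.11 in MK5-depleted DM2 (interaction -2.45 ± 0.44, adjusted p = 0.00472). Atp7a, a copper transporter, stood at 24, 22.9 and 21.1 against 2.93, 3.55 and 8.32 CPM (interaction -2.32 ± 0.51, adjusted p = 0.01). In all 3 genes the MK5-depleted DM2 libraries lay below control, with library 3 nearest to it. Rbl2, the pocket protein p130 of quiescent cells, rose from 83.1, 75.7 and 82.3 to 106, 110 and 102 CPM in control and fell from 82.8, 66.8 and 74.4 to 40.8, 49 and 56.1 in the MK5-depleted line (interaction -1.02 ± 0.15, adjusted p = 0.00233). In the opposite direction, Rab26os, a long noncoding RNA, rose in the MK5-depleted line to 5.86, 6.17 and 4.47 CPM and fell in control to 1.88, 1.02 and 1.34 (interaction 2.15 ± 0.46, adjusted p = 0.00923). These 5 genes kept their call in 12 of 12 fits with a library left out. With MK5-depleted DM2 1 and 2 both left out, the interaction was smaller at Zfp871 (-1.77), Klhl11 (-1.72), Atp7a (-1.57) and Rab26os (1.87).

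Ribosomal protein genes, which encode the structural proteins of the ribosome, had a higher interaction at 27 of 40 tested members and a lower one at none (median 0.52). Over all tested genes 8.54% were higher and 9.48% lower (median 0.01). In control 28 fell and 1 rose (23.1 and 22.5% of all tested genes did). In the MK5-depleted line 9 rose and 1 fell (24.6 and 24.8%). Rps19 stood at 240, 284 and 245 CPM in control GM libraries, 162, 173 and 183 in control DM2, 260, 284 and 252 in MK5-depleted GM and 369, 351 and 320 in MK5-depleted DM2 (interaction 0.96 ± 0.22, adjusted p = 0.0112). The levels parted at DM2 only. These genes are short (median 1835 exon bases, against 4180 over all tested genes), and with length and GC offsets 11 of 40 were called, with a median of 0.34. The count was 5 without MK5-depleted GM 3, 7 without control GM 2, 9 without MK5-depleted DM2 1, 12 without control DM2 1, 13 without MK5-depleted GM 1 or control DM2 2, and 0 with MK5-depleted DM2 1 and 2 both left out. Reads that these genes share with their many pseudogenes are uncertain.

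Exaggerated genes with a lower interaction include Pdk4 (chr6:5483351-5496309), the kinase that shuts pyruvate dehydrogenase and spares glucose, and a FoxO target. Pdk4 stood in control at 110, 112 and 142 CPM in GM and at 83.9, 74.5 and 65.8 at DM2, against 96.2, 100 and 113 and then 25.4, 31.5 and 26.3 in the MK5-depleted line. All MK5-depleted DM2 libraries were under all control DM2 libraries, while the lines overlapped in GM. Pdk4 fell 1.62-fold in control and 3.73-fold in the MK5-depleted line (interaction -1.2 ± 0.17, adjusted p = 0.00134, called in 12 of 12 fits with a library left out). Herc3, a HECT-domain protein, fell by 0.40 in control and by 1.64 in the MK5-depleted line, to 7.73, 7.64 and 8.63 CPM (interaction -1.24 ± 0.20, adjusted p = 0.0029). GTAAACA, a FoxO site, had no match in the 250 bases before Pdk4, and 3 of 29 promoters of the FoxO list held it, against 2.05% over all tested genes. By call, it was found in 0 of 2 promoters of FoxO list genes called higher, 0 of 5 called lower and 3 of 22 not called.

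Of 35 tested FoxO targets, 5 had a lower and 2 a higher interaction, with a median of -0.01 against 0.01 over all genes, where 9.48% were called lower and 8.54% higher. The lower count was 2 without MK5-depleted DM2 1, MK5-depleted GM 3 or control GM 2 and 3 without MK5-depleted GM 1 or control DM2 2. The higher count was 4 without MK5-depleted DM2 3 and 1 without any library other than that, control GM 1 or MK5-depleted GM 2, and with MK5-depleted DM2 1 and 2 both left out the counts were 1 lower and 0 higher. The control response of the list was divided, with 13 rising and 10 falling. Irs2, the insulin receptor substrate that FoxO factors turn on, rose from 17, 14.9 and 14.8 to 48.1, 52.1 and 46.4 CPM in control and from 15.8, 16.9 and 16.1 to 29.3, 32.1 and 34.7 in the MK5-depleted line. Its rise was smaller in all 3 MK5-depleted libraries (interaction -0.68 ± 0.12, adjusted p = 0.00472). Of the ubiquitin ligase list, 3 of 16 were lower (1 without MK5-depleted GM 3 or control GM 2) and 1 higher, among them Traf6 (-0.57 ± 0.13, adjusted p = 0.0126), whose call was lost with length and GC offsets (-0.30, adjusted p = 0.0583).

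Upward, exaggerated genes included several that began lower in the MK5-depleted line. Pi16, a secreted protein of fibroblasts, stood at 1.6, 4.04 and 2.6 CPM in control GM libraries and 0.67, 1.02 and 0.844 in MK5-depleted GM, and reached 5.99, 5.47 and 6.41 and 7.68, 8.3 and 8.95 at DM2. It was below control in GM and above it at DM2 in every library (interaction 2.20 ± 0.41, adjusted p = 0.00533). Igfbp4, which binds insulin-like growth factors, rose from 6.45, 9.84 and 8.31 to 39.5, 37.7 and 38.6 CPM in control and from 2.3, 4.66 and 2.21 to 29.3, 34.8 and 32.7 in the MK5-depleted line. Its larger rise (3.40 against 2.23 on the log2 scale) still ended below control (interaction 1.17 ± 0.27, adjusted p = 0.0117). Itga10, a collagen-binding integrin, rose by 2.54 in control and 4.03 in the MK5-depleted line (interaction 1.49 ± 0.35, adjusted p = 0.013), and the autophagy protein gene Map1lc3a by 0.48 and 1.68 (1.2 ± 0.26, adjusted p = 0.00936). The immediate early gene Ier2 rose from 49.1, 50.2 and 52.8 to 72.5, 73.3 and 91.4 CPM in control and from 46, 54.1 and 42.2 to 149, 125 and 142 in the MK5-depleted line (interaction 0.91 ± 0.16, adjusted p = 0.00429). Of the fibroblast markers, 3 of 9 tested were higher and none lower (8.54 and 9.48% of all tested genes were). The 11 markers, however, summed to 672 to 768 CPM in MK5-depleted DM2 and 801 to 856 in control DM2. Calls of Itga10 and Igfbp4 were lost on log2 TPM (0.01 and 0.45), as were those of Rps19 (0.12), Mki67 (0.53) and Igf2r (0.35).

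Newly responding genes with a lower interaction include Lnpep (chr17:17521410-17625050), an aminopeptidase of insulin-regulated vesicles. Lnpep stood at 27.3, 27.5 and 30 CPM in control GM libraries, 35.2, 40.3 and 38.2 in control DM2, 29.8, 21.7 and 35.1 in MK5-depleted GM and 6.08, 8.19 and 9.05 in MK5-depleted DM2. It was level between lines in GM and lay under all other libraries in MK5-depleted DM2. It fell 3.71-fold in the MK5-depleted line with no called change in control (0.42, adjusted p = 0.0556), an interaction of -2.31 ± 0.26 (adjusted p = 0.000682) called in 12 of 12 fits with a library left out and in 17 of 17 other alternatives. Uprt, related to uracil salvage enzymes, fell to 2.15, 3.06 and 5.16 CPM against 13.1, 16.5 and 13.4 in control DM2 (interaction -2.10 ± 0.36, adjusted p = 0.00396). Alg10b, a glycosyltransferase of the endoplasmic reticulum, fell to 25.6, 24.8 and 38.6 CPM against 102, 109 and 107 (interaction -1.97 ± 0.38, adjusted p = 0.00724). Both lay below control in every DM2 library.

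Fn1, or fibronectin, rose by 1.02 on the log2 scale in the MK5-depleted line, with no called change in control (-0.13, adjusted p = 0.505). In control it stood at 3770, 4460 and 3210 CPM in GM and 4110, 3070 and 3270 at DM2, against 3130, 3370 and 3170 and then 6670, 6600 and 6320 in the MK5-depleted line (interaction 1.15 ± 0.22, adjusted p = 0.00564). All MK5-depleted DM2 libraries were above every other library. Mylk, the myosin light chain kinase of smooth muscle, rose to 12.8, 9.88 and 12.8 CPM against 5.36, 6.17 and 7.56 in control DM2 (interaction 1.32 ± 0.24, adjusted p = 0.0053), and Igf2r, the receptor that clears IGF2, to 122, 111 and 119 against 61.9, 54.6 and 50.2 (0.81 ± 0.21, adjusted p = 0.0162). Over all tested genes 8.54% had a higher and 9.48% a lower interaction (median 0.01). Of the YAP and SRF targets, which follow actin tension, 7 of 25 were higher and 2 lower (median 0.29). Of the ERK feedback genes 6 of 28 were higher and 2 lower (median 0.29). On log2 TPM these counts were 2 and 2, and 2 and 4. Malat1 had an interaction of 3.25 ± 0.94 (adjusted p = 0.0299) and Kcnq1ot1, an imprinted nuclear RNA, of 3.32 ± 1.06 (adjusted p = 0.0414). Each kept its call in 3 of 12 fits with a library left out, and their levels follow the 2 libraries that stand apart.

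**Figure D3:**
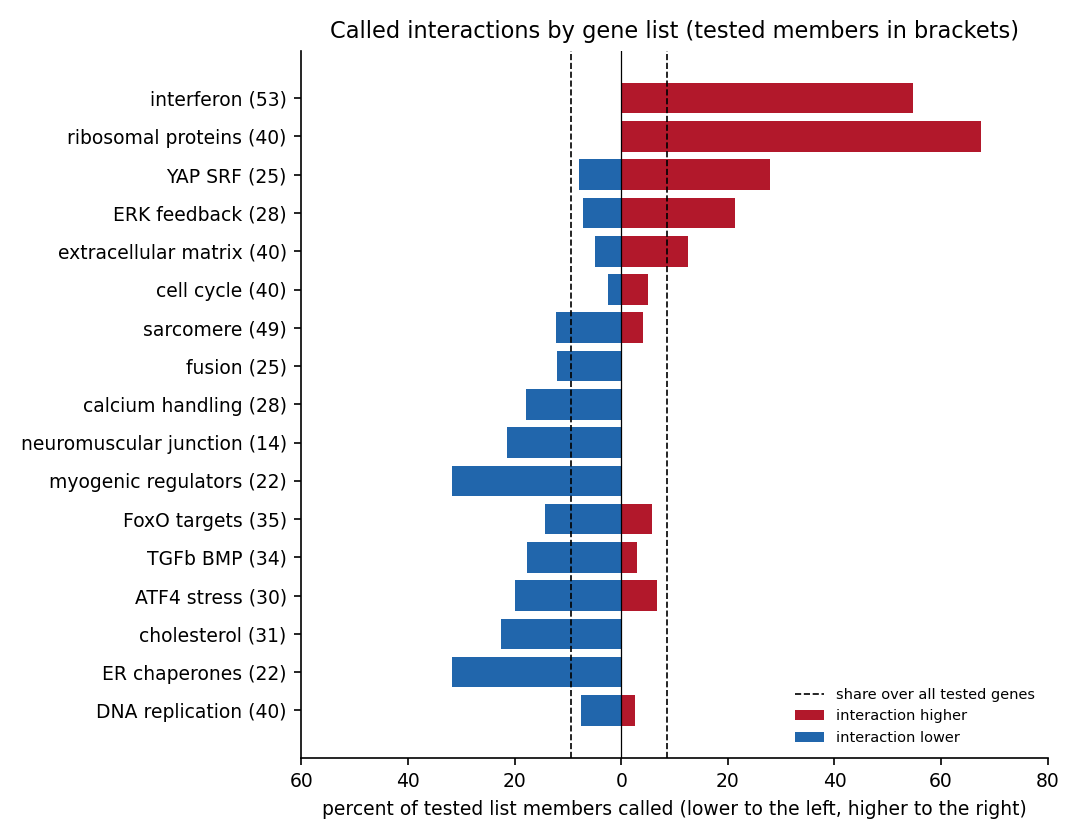
Share of tested members (number in brackets) of 17 gene lists with a called interaction, higher to the right and lower to the left, with dashed lines at the shares over all tested genes (8.54% and 9.48%). Interferon and ribosomal protein genes extend to the right without any lower call, and myogenic regulators and ER chaperones to the left without any higher one.

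Where edgeR called no member in a direction, the unadjusted p was under 0.05 in that direction at 2 interferon, 0 ribosomal protein, 0 myogenic regulator, 1 calcium handling, 0 junction, 2 fusion, 0 sterol, 0 chaperone and 1 fibroblast gene. DESeq2 called 1 calcium handling gene in that direction and 0 in each of the other lists. For the list counts that follow, the shares over all tested genes were 9.48% lower and 8.54% higher. Of 31 sterol and fatty acid synthesis genes, 7 were lower and none higher (22.6% called, median -0.38). This count of lower interactions was 4 without MK5-depleted GM 3 and 12 without control GM 1. Between the lines, 23 of the 31 were higher in MK5-depleted GM and none lower (median 0.55). At DM2, 10 were higher and 1 lower (median 0.13). Over all tested genes, 8.45% differed between the lines in GM and 45.1% at DM2. Insig1, which holds SREBP in the endoplasmic reticulum and is itself an SREBP target, stood at 69.4, 47.7 and 67.9 CPM in control GM libraries, 180, 177 and 148 in control DM2, 107, 97.8 and 113 in MK5-depleted GM and 140, 142 and 144 in MK5-depleted DM2. The MK5-depleted line began above control and ended below it (interaction -1.02 ± 0.17, adjusted p = 0.00329). Of 22 chaperone and unfolded protein response genes of the endoplasmic reticulum, 7 were lower and none higher, among them the stress sensors Atf6 (-0.67 ± 0.11, adjusted p = 0.00365) and Ern1 (-0.58 ± 0.15, adjusted p = 0.0169, lost without MK5-depleted DM2 1). The chaperone count was 3 without MK5-depleted DM2 1, 4 without MK5-depleted GM 1 or 3, control GM 2 or 3 or any control DM2 library, and 1 with MK5-depleted DM2 1 and 2 both left out. Atf6 rose from 115, 102 and 107 to 273, 270 and 251 CPM in control and from 119, 99.2 and 110 to 166, 165 and 176 in the MK5-depleted line. Of 30 ATF4 targets 6 were lower and 2 higher (26.7% called), and of 34 TGF-beta and BMP genes 6 lower and 1 higher (20.6%). The TGF-beta and BMP share was near the 18% called over all tested genes. Between the lines, 17 ATF4 targets were higher and 1 lower in MK5-depleted GM (median 0.46). At DM2, 10 were higher and 2 lower (median 0.2). The ATF4 count of lower interactions was 0 without MK5-depleted DM2 1 or 2, MK5-depleted GM 1 or 3, control GM 2 or control DM2 3. It was 1 without control DM2 2 or control GM 3, and 11 without control GM 1. The TGF-beta and BMP count stayed at 4 to 6 with a library left out. For the antioxidant list the counts were 5 lower and 2 higher of 26, with Gclc, the glutamate-cysteine ligase subunit, at -1.12 ± 0.27 (adjusted p = 0.0139). The antioxidant lower count was 2 without MK5-depleted DM2 1 and 3 without MK5-depleted GM 1 or 3, control GM 2 or control DM2 2. The 9 tested genes of the mitochondrial genome had a median of 1.24, which was -0.12 with MK5-depleted DM2 libraries 1 and 2 left out.

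Mapk6, the gene of the partner kinase ERK3, was itself blunted. In control it stood at 150, 119 and 124 CPM in GM and 219, 207 and 204 at DM2, and at 174, 142 and 175 and then 161, 153 and 163 in the MK5-depleted line. The rise in control (0.68, adjusted p = 0.000163) had no called counterpart in the MK5-depleted line (-0.04, adjusted p = 0.787), and the interaction was -0.72 ± 0.17 (adjusted p = 0.0123, called in 12 of 12 fits with a library left out). The interaction at Mapk6 was -0.67 with MK5-depleted DM2 1 and 2 both left out.

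The direction of the interaction followed gene length. Genes were cut by exon length into 10 bins of like size. In the shortest bin, up to 1391 bases, the median was 0.52, with 17.5% called higher and 1.22% lower. In the longest bin it was -0.20, with 3.74% higher and 20.3% lower. Between lines the same bins differed by 0.50 and -0.23 at DM2 and by -0.01 and 0 in GM. Called higher genes had a median of 2529 exon bases and called lower genes 6548. With length and GC offsets, which take out the trend of a library over both, 1657 genes were called, 1278 of them among the 2512, and the medians of the bins lay between -0.01 and 0.10. In a fit with each library's percent of reads outside genes added as a term, 2731 genes were called, 2411 of them among the 2512. Of the named genes, Chrna1 (-0.55, adjusted p = 0.0591), Irf7 (1.23, adjusted p = 0.0678) and Prg4 (2.12, adjusted p = 0.0568) lost their call in that fit. With offsets the counts, not all of the same genes, were 24 higher in the interferon list, 7 lower in the myogenic regulators, 4 lower at the neuromuscular junction, 3 lower in calcium handling and 4 lower and 1 higher in the sarcomere list.

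**Figure D4:**
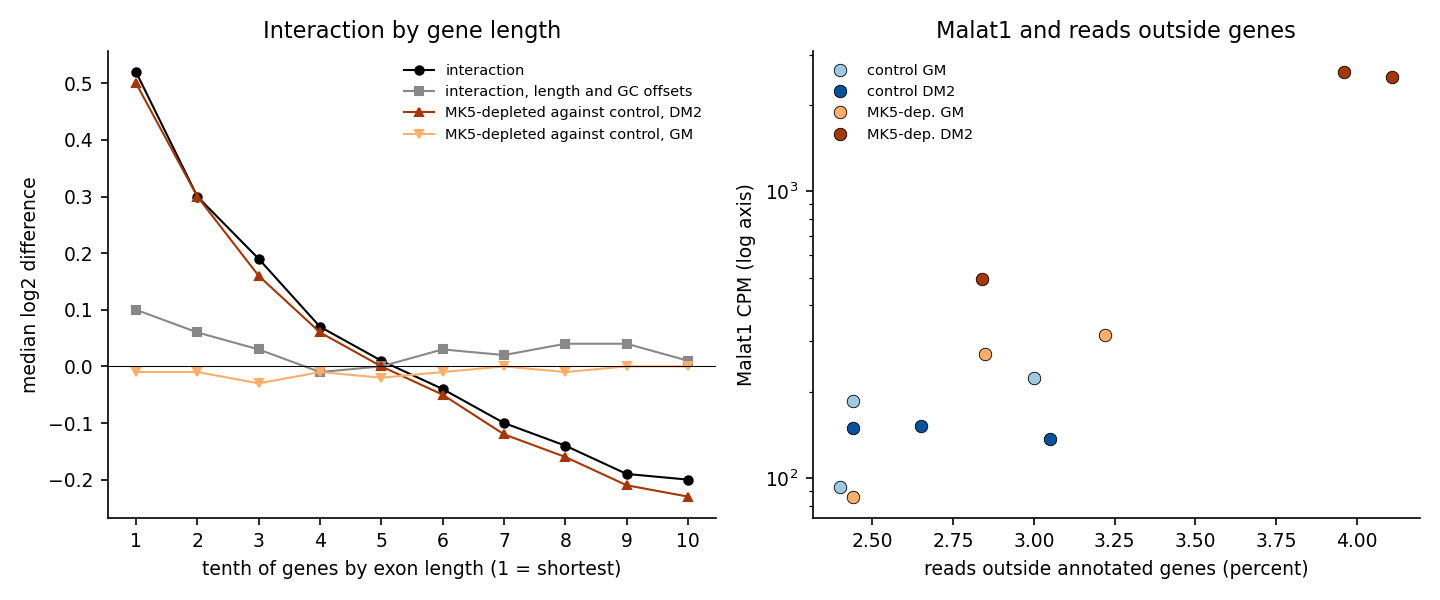
Left, median log2 difference over genes in each of 10 bins by exon length, for the interaction with and without length and GC offsets and for MK5-depleted against control in each medium; right, Malat1 CPM (log axis) against the percent of reads outside genes in the 12 libraries. The interaction runs from 0.52 in the shortest to -0.20 in the longest bin, and MK5-depleted DM2 libraries 1 and 2 lie apart at the upper right.

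The response of the MK5-depleted line was then set against that of the ERK3-depleted line, a contrast with no control library. No gene was called by edgeR (smallest adjusted p = 0.234) or DESeq2, with 1017 (7.30%) and 987 genes at an unadjusted p under 0.05, and the median absolute difference was 0.16. Without a filter on low counts, 279 genes were called. In ERK3-depleted DM2 libraries 1, 2 and 3, Malat1 stood at 6580, 12700 and 1700 CPM and reads outside genes at 5.55, 7.73 and 3.79%, above the ERK3-depleted GM libraries (241 to 297 CPM and 2.67 to 3.07%). These are the measures by which MK5-depleted DM2 1 and 2 stood apart, and their part in the likeness of the depleted lines was not tested. No response described here was thus shown to be particular to MK5. The ERK3-depleted response, which shares no library with the interaction, was used to choose genes apart from it. The 4023 genes that rose there (28.9%) had a median interaction of 0.21, with 665 called higher and 167 lower, and the 3657 that fell (26.2%) a median of -0.20, with 104 higher and 666 lower. On log2 TPM the medians were -0.13 and -0.45, on either side of the -0.277 of all genes in that unit. For single genes the responses of control, MK5-depleted and ERK3-depleted cells were -2.09, 1.19 and 0.81 for Ifit1, -0.70, -1.90 and -1.72 for Pdk4, 0.42, -1.89 and -1.66 for Lnpep and 5.69, 3.87 and 2.94 for Casq2. These genes were not chosen apart from the interaction, and both depleted lines are set against the same control libraries.

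**Figure D5:**
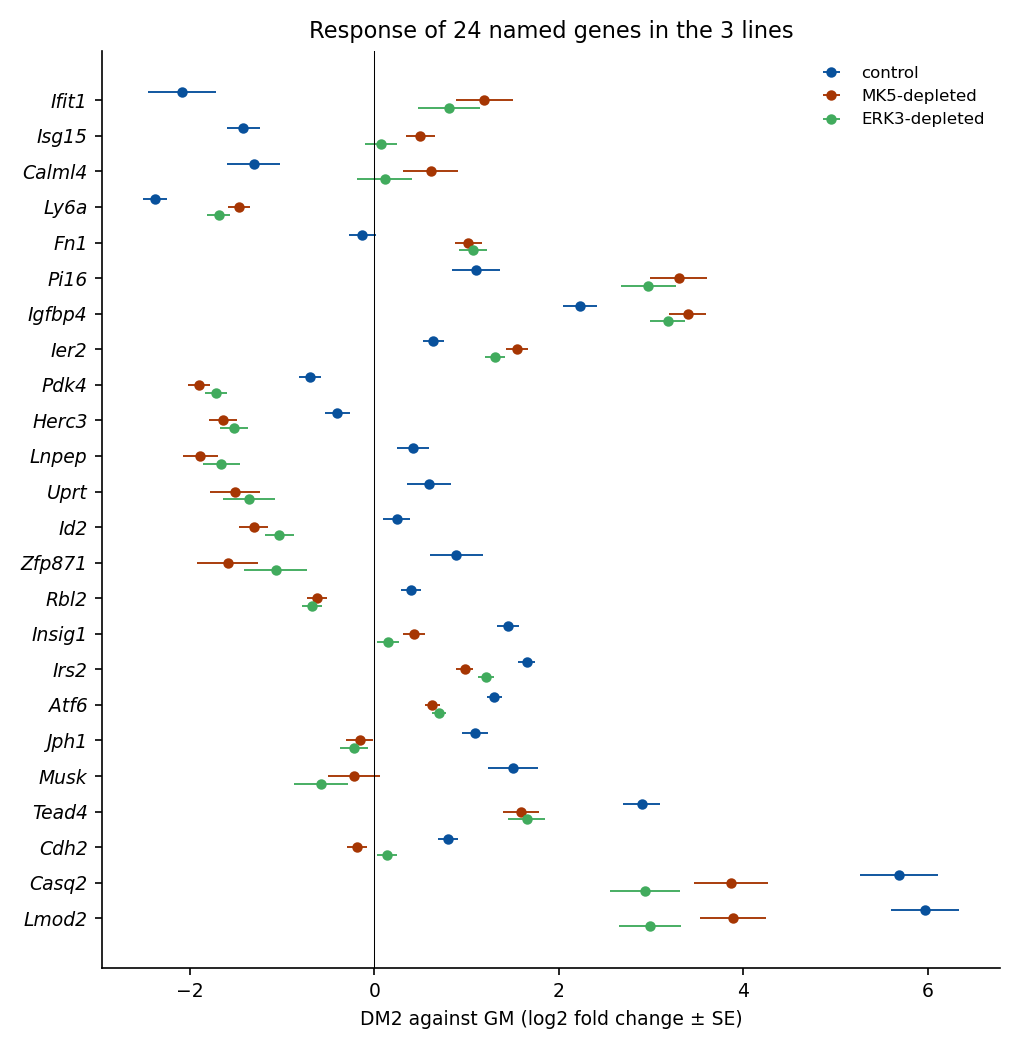
Log2 fold change from GM to DM2 with its SE in control, MK5-depleted and ERK3-depleted cells for 24 genes. At Ifit1, Isg15, Pdk4, Lnpep, Jph1 and Tead4 both depleted lines lie on the same side of control. The genes were not chosen apart from the interaction, and both depleted lines are set against the same control libraries. The shared side is thus no separate evidence of likeness. EdgeR called no gene between the responses of the depleted lines.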

How the data were processed

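Poly(A) RNA was sequenced from 18 C2C12 libraries with a strand-specific kit, per the labels. The authors deposited gene counts from STAR 2.5.1b and expected counts and TPM from RSEM 1.2.28 on GRCm38, per the submitters' processing notes, which also name bcl2fastq 2.17. The reverse-strand counts were used, since 92.8 to 95.3% of stranded gene counts lay there. Summary lines for reads outside single genes (21.7 to 29.4% of reads) were left out. Deposited TPM and expected counts (rounded) served for Mapkapk5 and as alternatives.

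Genes were kept by filterByExpr over the 6 groups (13939 of 50600 identifiers), scaled by TMM and fitted with edgeR 4.0.16 (robust quasi-likelihood, R 4.3.3), with 1 mean per group and Benjamini-Hochberg adjustment over all tested genes. Alternatives used DESeq2 1.42.0, limma 3.58.1, other filters and scalings, length and GC offsets, a replicate block and left-out libraries. On log2 TPM the pseudocount was 1. Coordinates and exon lengths come from GENCODE M21, and promoters from RefSeq. The scripts were tested on simulated data. No 2 libraries were identical.

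Named were Mapk6, Mapkapk5, Foxo3, Casq2, Ifit1 and Pdk4, the 3 called genes with the largest interaction in each class and direction with a mean of at least 5 CPM in a group, and the 2 such called members of each of 39 lists. Of these the text describes a part, and 11 more were named after their values were seen. Myog, Myh3 and Des are given as markers of muscle identity. An item is not reported here. The members and lists were chosen with earlier results of these data known.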

Additional observations from a re-analysis of the deposited data

Results flagged for a closer look

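The change from GM to DM2 differed between the MK5-depleted and control lines at 2512 genes, by a test of that difference itself (the interaction, edgeR's quasi-likelihood test). Groups of 3 libraries are too small for a test of single outlying libraries, so fits with libraries left out are given instead. In MK5-depleted DM2, the mean squared difference over the variance expected from counting was 8.69 between libraries 1 and 2. It was 42.2 between 1 and 3 and 48 between 2 and 3. Pairs within control GM, control DM2 and MK5-depleted GM gave 8.87 to 18.7.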

How the results depend on the processing

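The count of called genes (2512) was 3870 with the 12 libraries fitted alone, 1657 with length and GC offsets, 366 at an adjusted p under 0.01, 6 when tested against a 1.5-fold change (Ccl5, Lnpep, Isg15, Ifit1, Kcnh1 and Gm13066) and 190 with MK5-depleted DM2 libraries 1 and 2 both left out. It ran from 879 to 3008 with each library left out: 879 without MK5-depleted GM 3, 987 without MK5-depleted DM2 1, 1032 without control GM 2, 1168 without MK5-depleted GM 1, and 1282, 1466 and 1656 without control DM2 2, 3 and 1. In the same order of the last 3 settings (0.01, 1.5-fold, both left out), blunted genes numbered 172, 4 and 82, newly responding 155, 2 and 54, exaggerated 11, 0 and 20, reversed 25, 0 and 34, genes that differed between lines at DM2 only 346, 5 and 174, and list members (195) 39, 3 and 24. With offsets, newly responding genes numbered 629 and genes differing at DM2 only 1372. Exaggerated genes numbered 207 without a filter, 304 with 12 libraries and 53 on log2 TPM, and reversed genes 340 and 550 for the first pair of these. With a library left out the ranges were 413 to 1256 blunted, 44 to 144 exaggerated, 93 to 277 reversed, 318 to 1229 newly responding, 842 to 2618 at DM2 only and 81 to 225 list members. The MK5 against ERK3 response had 0 to 0 calls with a library left out, 279 without a filter and 7 with both libraries left out. The median at genes rising in the ERK3-depleted line (0.21) was 0.16 with reads outside genes as a covariate, 0.17 from RSEM counts, -0.13 on log2 TPM (all genes -0.277) and 0.15 with both left out (0.19 to 0.22 with 1 left out). At falling genes (-0.20) it was -0.14 with offsets, with the block and offsets and with both left out, -0.16 with the covariate and -0.45 on log2 TPM (-0.26 to -0.18). Foxo3 was 0 with offsets (adjusted p = 0.996). Mapkapk5 was 0.59 from RSEM counts, 0.22 on log2 TPM, 0.10 with both left out, and from -0.29 (without MK5-depleted DM2 3) to 0.05 (without MK5-depleted DM2 2) with a library left out, at 0.01 without control DM2 1. The cause of these changes was not tested.

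With the replicate number as a replicate block, 3764 genes were called (3617 with the block within each line, 2805 with the block and offsets), of which 275, 271 and 225 were exaggerated and 420, 455 and 330 reversed. Of 12 same-numbered pairs, 8 had deviations correlated over 0.1 (range -0.21 to 0.49) and in 8 the same number was the best match. Pairing was taken only where every pair is over 0.1, which 4 pairs were not; the match is a hint from the data, not the design. Counts within the lists stayed within 1.5 times in 1537 comparisons with an alternative and moved further in 725. Mapkapk5, with 11 to 32 reads a library, is limited by depth.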
